A study of Mus musculus with 6 samples.

Results

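The MYC and MAX network is a small family of transcription factors, and its expression was examined in bone marrow-derived basophils (BMBAs) stimulated with IL-3. The network was taken as 10 genes, picked by symbol and family membership from the 37043 gene symbols of the count table. They were the MYC genes Myc, Mycn and Mycl, the dimer partner Max, the MXD-type antagonists Mxd1, Mxd3, Mxd4, Mxi1 and Mnt, and Mlx, a relative of Max. All 10 were in the table and 9 were expressed highly enough to be tested, the exception being Mycl.

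BMBAs are basophils grown in culture from mouse bone marrow, here from wild-type C57BL/6J mice, over 7 days with 0.3 ng/mL of a cytokine that the methods of the study name as IL-3. Cells positive for CD49b were then selected with beads, which leaves a culture of mixed cells enriched for basophils. The cells received PBS as a control or 10 ng/mL IL-3 for 6 h, and 3 cultures of each kind were analysed by bulk RNA-seq. Both groups had therefore been raised in a low dose of the same cytokine, and whether it was still present during the PBS treatment is not stated in the sources used here.

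MYC proteins activate transcription when they pair with MAX and bind the DNA motif called the E-box, and they are known for driving cell growth and ribosome production. MXD proteins, MXI1 and MNT pair with the same MAX and bind the same motif, but recruit the SIN3-HDAC corepressor and repress. MXD genes are best known for being expressed as cells leave the cell cycle and differentiate, and MLX pairs with some of these proteins and with the glucose-responsive MONDO factors.

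The 6 libraries held 10537540 to 13999287 counts, and libraries of one group correlated across genes at 0.985 to 0.988 against 0.952 to 0.957 between groups. The level of a gene is given as CPM, its read count relative to the library size after TMM scaling. Calls rest on the quasi-likelihood test of edgeR over all 16675 genes tested, with 0.05 as the limit of the adjusted p. By this test 38.2% of all genes were called, 18.0% as higher after IL-3 and 20.2% as lower. When libraries were scaled by their totals instead, the median gene shifted by -0.16 on the log2 scale, and 40.3% of genes were called, 10.2% higher and 30.2% lower, so that higher calls made up 25.2% of calls instead of 47.1%. The labelled cell type was checked with 8 basophil markers, all of them expressed, with 6 called higher and 1, Fcer1a, lower. Their summed level was 10470 to 11720 CPM under PBS and 15550 to 15760 CPM after IL-3. Monocyte and macrophage markers summed to 11780 to 12720 CPM under PBS, above the basophil sum, and to 6132 to 6757 CPM after IL-3, below it. Most of that PBS sum was Lyz2, at a mean of 10456 CPM.

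Most of the network responded. Of the 9 tested members 4 were called higher, namely Myc, Mycn, Mxd1 and Mlx, and 4 were called lower, namely Mxd3, Mxd4, Mxi1 and Mnt. Max was not called. In each of the 9 the groups did not overlap after TMM scaling, 5 with IL-3 above PBS and 4 below. This was also seen in 48.2% of all genes tested (23.8% above and 24.4% below). The 5 include Max, whose log2 fold change was -0.017 with scaling by library totals. At a stricter limit of 0.01, passed by 27.3% of all genes (13.0% higher, 14.3% lower), the same 8 members were called. A test against a fold of 1.5, passed by 9.55% of all genes (4.25% higher, 5.3% lower), called Myc and Mycn higher and Mxd3 and Mxi1 lower. Myc and Mycn rose several-fold and Mycl was too low to compare, whereas 4 of the 5 antagonists fell and Mxd1 went the other way. In bulk RNA of a mixed culture, fewer cells of a type and less RNA per cell cannot be told apart.

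Myc (chromosome 15, 61985391 to 61990374, plus strand, GRCm38) encodes the c-MYC protein. It was at 3.35, 3.51 and 3.96 CPM in the PBS libraries and at 23.5, 26.8 and 18.7 CPM in the IL-3 libraries. The lowest IL-3 library thus lay far above the highest PBS library, although the IL-3 libraries differed among themselves more than the PBS libraries did. The level went from 3.61 ± 0.317 to 23.0 ± 4.08 CPM (SD, n = 3 each). This was a 6.36-fold rise with a 95% interval of 4.95 to 8.16, which on the log2 scale was 2.67 with SE 0.169 (edgeR adjusted p = 3.50e-09). Among all genes tested Myc had the 92nd highest log2 fold change.

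Mycn (chromosome 12, 12936093 to 12941914, minus strand) encodes N-MYC, which is best known from embryonic tissue and stem cells. It was at 1.64, 2.02 and 2.82 CPM in PBS and at 9.08, 8.08 and 7.68 CPM in IL-3. The groups did not overlap, and the counts behind these values were 20 to 32 reads in PBS and 92 to 99 reads in IL-3. Mycn rose 3.83-fold with a 95% interval of 2.77 to 5.29, which on the log2 scale was 1.94 with SE 0.219 (edgeR adjusted p = 3.35e-06). It had the 203rd highest log2 fold change of all genes tested.

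Mycl (chromosome 4, 122995652 to 123002485, plus strand) encodes L-MYC, the MYC protein known from dendritic cells. It had 3, 2 and 0 reads in PBS and 0 reads in each IL-3 library. A count of 0 allows up to 3 reads, or 0.233 to 0.296 CPM depending on the library, so that no difference of Mycl was detectable at this depth and no fold is given. The limit covers counting error only.

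**Figure D1:**
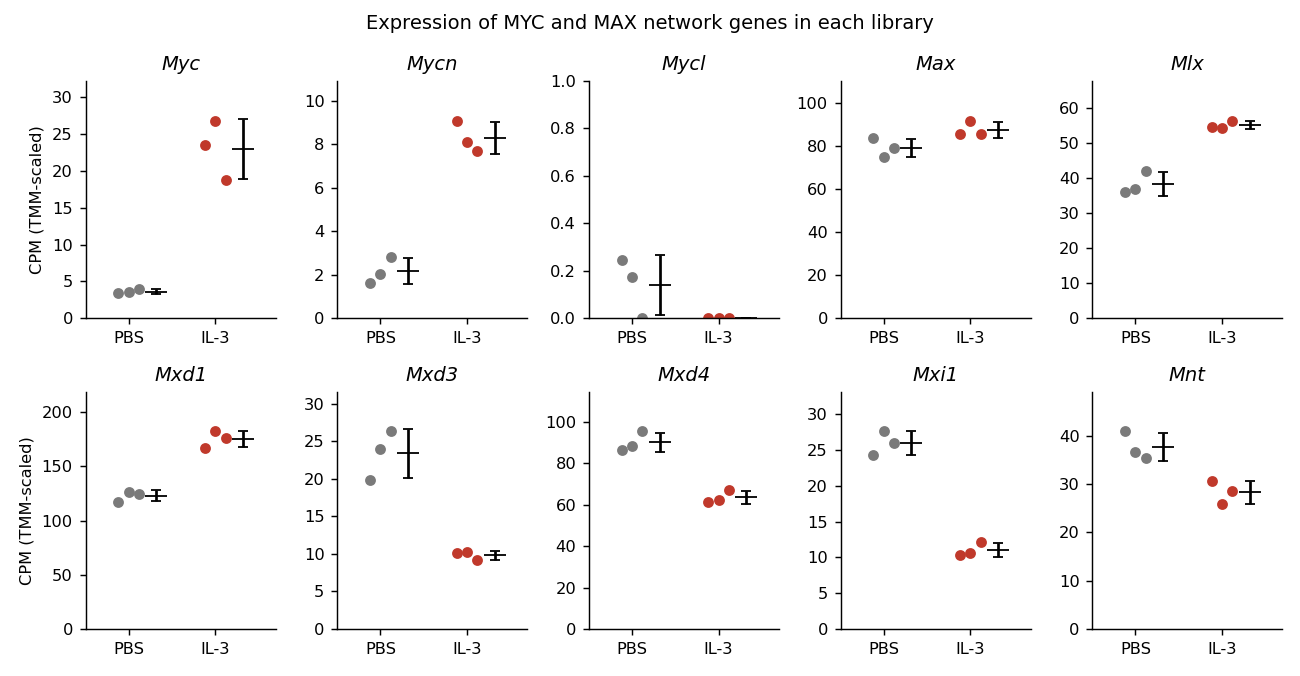
Level of the 10 network genes in each library, in CPM after TMM scaling, with PBS in grey and IL-3 in red (points) and the mean with SD beside them (black, n = 3). Each panel has its own axis from 0; Myc reaches 26.8 CPM in IL-3 against at most 3.96 CPM in PBS, while Mxd3 and Mxi1 fall below all PBS libraries.

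Among the antagonists the deepest falls were those of Mxd3 and Mxi1. Mxd3 (chromosome 13, 55325168 to 55329823, minus strand) is the MXD gene known for expression in dividing cells around S phase. It was at 19.8, 24.0 and 26.3 CPM in PBS and at 10.1, 10.2 and 9.15 CPM in IL-3, so the IL-3 libraries were close together and well below the PBS libraries. Its level was 2.38-fold lower in IL-3, which on the log2 scale was -1.25 with SE 0.134 (edgeR adjusted p = 1.78e-06).

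Mxi1 (chromosome 19, 53310518 to 53375810, plus strand) encodes a MYC antagonist with several promoters. It was at 24.3, 27.6 and 26.0 CPM in PBS and at 10.4, 10.6 and 12.1 CPM in IL-3. These groups were also far apart, and the level was 2.35-fold lower in IL-3, which on the log2 scale was -1.23 with SE 0.117 (edgeR adjusted p = 4.62e-07). Mxd3 and Mxi1 had the 482nd and 514th lowest log2 fold changes of the 16675 genes.

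Mxd4 and Mnt fell less. Mxd4 (chromosome 5, 34173883 to 34187720, minus strand), known for expression in resting and differentiated cells, was at 86.7, 88.5 and 95.6 CPM in PBS and at 61.2, 62.4 and 67.2 CPM in IL-3. Its log2 fold change was -0.50 with SE 0.0668 (edgeR adjusted p = 1.84e-05), which is a change of the level by -29.5% with a 95% interval of -36.1% to -22.2%.

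Mnt (chromosome 11, 74830920 to 74845725, plus strand), known as the broadly expressed antagonist that is present in dividing and resting cells alike, was at 41.0, 36.7 and 35.5 CPM in PBS and at 30.6, 25.8 and 28.6 CPM in IL-3. The gap between the lowest PBS and the highest IL-3 library was the narrowest among the called antagonists on this scale. The log2 fold change was -0.42 with SE 0.0946 (edgeR adjusted p = 0.00245).

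Mxd1 (chromosome 6, 86647042 to 86669161, minus strand) encodes MAD1, the MXD protein first tied to terminal differentiation of myeloid cells. It was at 118, 127 and 125 CPM under PBS and at 167, 183 and 176 CPM after IL-3. The groups did not overlap, and in contrast to the other antagonists all IL-3 libraries were the higher ones. Mxd1 rose 1.43-fold with a 95% interval of 1.31 to 1.55, which on the log2 scale was 0.51 with SE 0.0586 (edgeR adjusted p = 3.76e-06).

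Max and Mlx, the dimer partners, moved little or moderately. Max (chromosome 12, 76937269 to 76962201, minus strand) was at 83.4, 75.0 and 78.8 CPM in PBS and at 85.5, 91.7 and 85.2 CPM in IL-3, so that the IL-3 libraries were higher by a narrow margin. Its log2 fold change was 0.15 with a 95% interval of 0.0074 to 0.28 before adjustment, and it was not called (edgeR adjusted p 0.0916). At a limit of 0.1, passed by 44.7% of all genes (21.1% higher, 23.6% lower), it would be called. Scaling by library totals gave Max a value of -0.017, so no direction is given for it.

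Mlx (chromosome 11, 101087277 to 101092207, plus strand) was at 36.1, 36.8 and 42.2 CPM in PBS and at 54.7, 54.4 and 56.5 CPM in IL-3. It rose 1.44-fold with a 95% interval of 1.28 to 1.62, which on the log2 scale was 0.53 with SE 0.0801 (edgeR adjusted p = 7.59e-05). Psmc3ip lies on the opposite strand and covers 15.8% of the 50-mers of Mlx, but it was at a mean of 2.81 CPM under PBS and 2.18 CPM after IL-3. Transcripts on the opposite strand held 5.32% of the 50-mers of Mxd4 and 2.13% of those of Mxi1, and among their genes Gm42846 and Gm10197 were too low to be tested. Prelid1, which covers 2.22% of the 50-mers of Mxd3 on the opposite strand, was at 309 and 439 CPM and went up where Mxd3 went down.

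**Figure D2:**
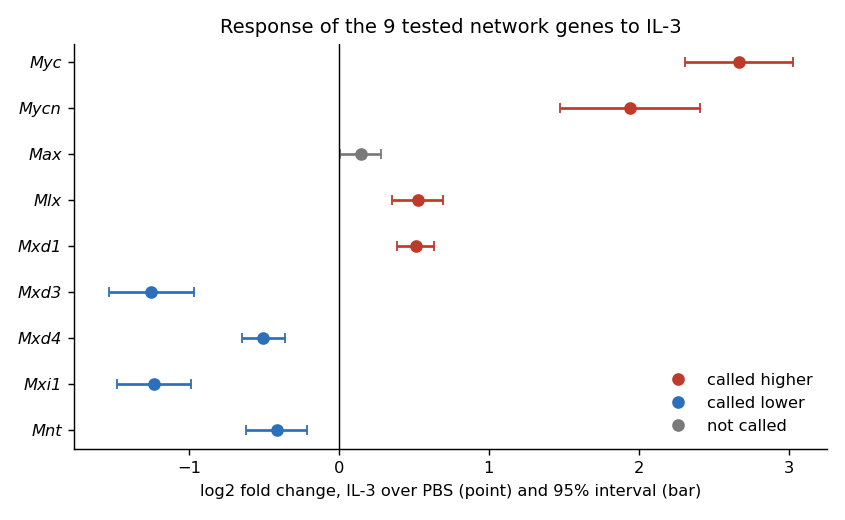
Log2 fold change of the 9 tested genes, IL-3 over PBS (points), with 95% intervals (bars) from edgeR's quasi-likelihood fit of 3 against 3 libraries. Red marks genes called higher, blue those called lower and grey Max; Myc is at 2.67 and Mycn at 1.94, whereas Mxd3 and Mxi1 are at -1.25 and -1.23.

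To compare levels between members, CPM was divided by the exon length of each gene in kilobases. The order in PBS was Max, Mxd1, Mxd4, Mlx, Mxd3, Mnt, Mxi1, Myc, Mycn and Mycl. Max was at 40.4 ± 2.17 CPM per kilobase and Mxd1, the highest antagonist, at 26.4 ± 1.04 (SD, n = 3). Myc was at 1.47 ± 0.130 and Mycn at 0.769 ± 0.215 CPM per kilobase, below every antagonist. Of neighbours in this order only Mlx and Mxd3 overlapped between libraries. The order depends on the division: in plain CPM Mxd1 at 123 and Mxd4 at 90.3 lay above Max at 79.1 in PBS.

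In IL-3 the order was Max, Mxd1, Mlx, Mxd4, Myc, Mxd3, Mnt, Mycn, Mxi1 and Mycl. Myc had moved from the 8th to the 5th place, at 9.40 ± 1.67 CPM per kilobase (SD, n = 3), and its libraries overlapped those of Mxd3 at 7.40 ± 0.442. Mycn, at 2.95 ± 0.258 CPM per kilobase, now lay above Mxi1 at 1.65 ± 0.142. Max and Mxd1 stayed at the top, with 44.7 ± 1.86 and 37.6 ± 1.63 CPM per kilobase. The counts do not separate transcript forms, and the exon length used spans all forms, 8 of them coding for Mxi1 and 7 for Myc. Division by length also takes reads to cover the whole exon length, which was not tested. The methods of the study describe capture of mRNA with oligo-dT. The order between genes is therefore less firm than the changes within genes.

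**Figure D3:**
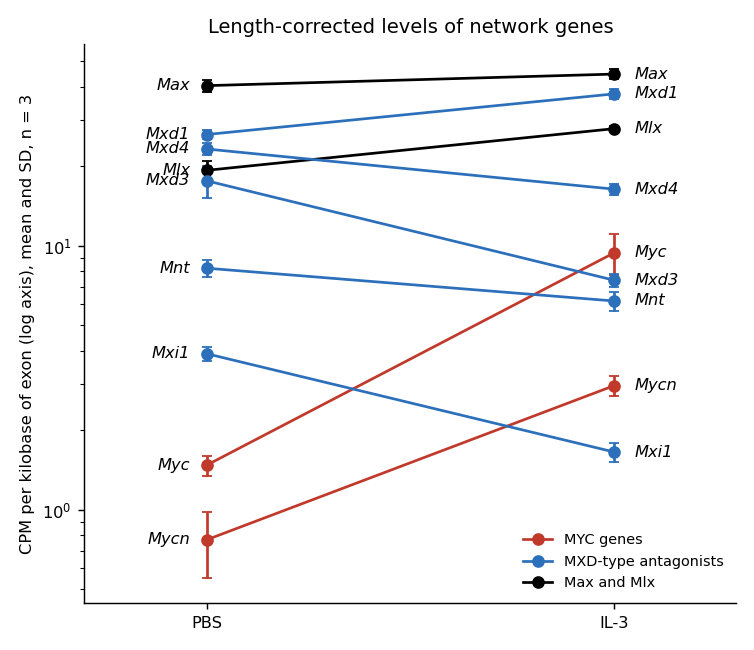
Mean level of each gene in PBS and IL-3, in CPM per kilobase of exon on a log axis, with SD (n = 3); Mycl is left out because its level in IL-3 is 0. Lines of the MYC genes (red) cross those of antagonists (blue), with Myc going from 1.47 to 9.40 and Mxi1 from 3.90 to 1.65.

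The balance of both sides was described by the summed length-corrected level of the 3 MYC genes against that of the 5 antagonists within each library. The MYC sum was 2.02, 2.20 and 2.63 CPM per kilobase in PBS and 12.8, 13.8 and 10.4 in IL-3. The sum of the antagonists was 75.0, 80.2 and 82.9 CPM per kilobase in PBS and 67.5, 70.1 and 70.0 in IL-3. By length-corrected level, antagonist transcripts thus exceeded MYC transcripts in every library, 31.6-fold to 37.1-fold in PBS and 5.07-fold to 6.75-fold in IL-3.

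On the log2 scale the ratio of MYC genes to antagonists was -5.13 ± 0.128 in PBS and -2.50 ± 0.225 in IL-3 (SD, n = 3 each), a difference of 2.63. The ratio is taken within a library and does not depend on library scaling, and since it is a score over chosen genes it is given as a description with no test. The MYC sum was 5.41 times its PBS level, whereas the antagonist sum was 0.872 times its PBS level, so the larger part of the difference lay on the MYC side. Without division by length the antagonist sums overlapped, at 289 to 308 CPM in PBS and 280 to 293 CPM in IL-3. The MYC sums were then 5.24 to 6.78 CPM and 26.4 to 34.9 CPM.

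Within the antagonists the composition shifted towards Mxd1. Mxd1 made up 33.6%, 33.9% and 32.3% of the summed antagonist level in the PBS libraries and 53.2%, 55.8% and 53.9% in the IL-3 libraries. The share of Mxd3 went from 22.1% ± 2.07 to 10.7% ± 0.749, that of Mxd4 from 29.3% ± 0.763 to 23.7% ± 0.935 and that of Mxi1 from 4.92% ± 0.236 to 2.39% ± 0.180 (SD, n = 3 each). Mnt kept to 10.4% ± 1.34 and 8.94% ± 0.931, shares whose libraries overlapped. All these shares rest on division by length. Without it Mxd3 and Mxi1 were at similar PBS levels, 23.4 ± 3.32 and 26.0 ± 1.66 CPM (SD, n = 3). Mycn made up 33.3% ± 4.74 of the MYC sum in PBS and 24.1% ± 2.94 in IL-3. The level of Max was 0.496 ± 0.0494 of the sum of all its listed partners in PBS and 0.548 ± 0.00879 in IL-3, so that the partner transcripts together exceeded Max in both groups.

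**Figure D4:**
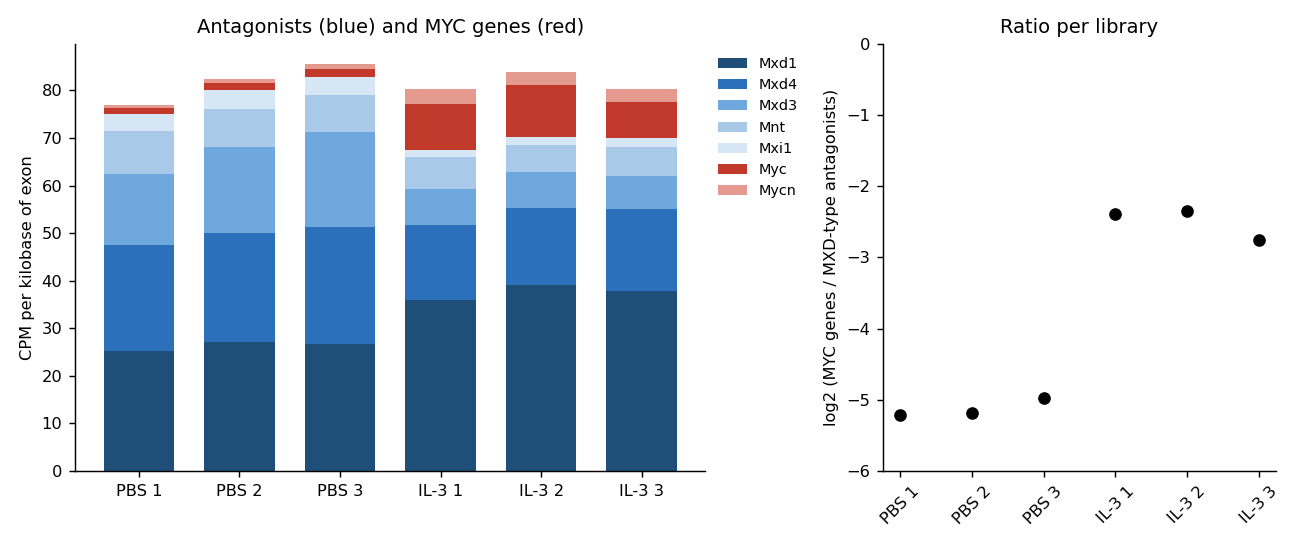
Left, stacked length-corrected levels (CPM per kilobase of exon) of the antagonists (blue) and of Myc and Mycn (red) in each library. Right, log2 ratio of summed MYC genes to summed antagonists per library; the PBS libraries lie between -5.21 and -4.98 and the IL-3 libraries between -2.75 and -2.34.

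Because MYC, MXD, MNT and MLX dimers bind the E-box CACGTG, the promoters of the members were searched for it. RefSeq promoters of build GRCm38.p6, 300 bases from 250 before to 50 after the start of transcription, were found for 9 of the 10 members, all but Myc, and Mxi1 had 3. The motif reads the same on both strands. It was present in the promoters of Max, Mlx, Mxd4 and Mnt, and it is held by 7.15% of the 32851 promoters of the same length. The stretches that hold it are shown 5′ to 3′ on the strand of the gene, with the E-box in capitals, to show where in each promoter it lies.
Mxd4, chr5:34187864-34187960, minus strand: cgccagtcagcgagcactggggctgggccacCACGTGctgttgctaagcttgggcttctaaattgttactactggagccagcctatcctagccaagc
Mnt, chr11:74830741-74830866, plus strand: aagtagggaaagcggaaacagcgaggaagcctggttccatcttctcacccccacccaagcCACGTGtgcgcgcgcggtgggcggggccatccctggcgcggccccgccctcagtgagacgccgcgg
Mlx, chr11:101087190-101087299, plus strand: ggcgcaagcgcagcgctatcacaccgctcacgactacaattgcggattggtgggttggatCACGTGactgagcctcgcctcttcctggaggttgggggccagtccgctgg
Max, chr12:76962239-76962311, minus strand: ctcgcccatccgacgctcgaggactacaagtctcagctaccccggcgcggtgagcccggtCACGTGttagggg

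The E-box began at position -219 from the start of transcription in Mxd4, at -123 in Mnt, at -40 in Mlx and at -3 in Max. Of these 4 genes Mlx was called higher, Mxd4 and Mnt were called lower and Max was not called, so the genes with the motif did not move one way. None of the 9 genes held TTCNNNGAA, the motif of STAT5 through which IL-3 signals, or TTTCCCGC, a motif of E2F, searched on both strands. These motifs were held by 8.30% and 1.07% of all promoters. A match or its absence says only which letters are in this window.

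Genes that MYC is widely described as activating were more often higher than lower in IL-3. Of 41 such genes, all tested, 21 were called higher and 4 lower, or 51.2% and 9.76% against 18.0% and 20.2% of all genes. Their median log2 fold change was 0.33 against -0.0033 over all genes tested. With scaling by library totals 15 were higher and 8 lower, against 10.2% and 30.2% of all genes. The median was then 0.17, on a scale where the median gene shifted by -0.16. The lists of genes were chosen with earlier results of these data known, so these counts are descriptions. Without IL-3 replicate 3, 21 were higher and 2 lower. The counts were 19 and 4 without PBS replicate 2, and 18 and 3 without PBS replicate 3.

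Slc7a5, which encodes an importer of large neutral amino acids, rose most within that list, from 94.7 ± 9.35 to 689 ± 34.5 CPM (SD, n = 3 each), or 2.86 on the log2 scale (edgeR adjusted p = 2.69e-14). Srm, the gene of spermidine synthase, had a log2 fold change of 1.46, Hk2, which encodes a hexokinase, one of 0.83 and Nme1, a nucleoside diphosphate kinase, one of 0.77. Among the 16 genes that were not called, Ldha, a lactate dehydrogenase, was at 0.033 and Odc1, an enzyme of polyamine synthesis, at -0.052. The 4 genes called lower were Tfrc, the transferrin receptor, at -0.72, Apex1, a DNA repair enzyme, at -0.48, Ptma, the most abundant gene of the list under PBS, at -0.32 and Cdk4, a kinase of G1 phase, at -0.23. Ldha, Odc1, Tfrc, Apex1 and Cdk4 were picked with their values in view. For 35 genes of the list a promoter entry was present, and 12 of these, or 34.3%, held CACGTG, against 7.15% of all promoters. The units differ, since a gene counted when any of its promoters held the motif, whereas 7.15% is a share of single promoters. Among those 12, 6 were called higher and 2 lower, and among the 23 without it 10 were called higher and 2 lower. The median log2 fold change was 0.15 with the motif and 0.30 without it, so the counts and the medians did not point one way, and no test was made.

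Genes described as repressed by MYC went both ways. Of 7 tested genes 4 were called lower and 2 higher, or 57.1% and 28.6% against 20.2% and 18.0% of all genes, and the median was -0.46 on the log2 scale. Of 3 inhibitors of cyclin-dependent kinases in the list, 2 were the genes called higher and the other was called lower. Cdkn1a, the gene of p21, rose from 149 ± 9.42 to 609 ± 15.3 CPM (log2 fold change 2.03), and Cdkn2b, the gene of p15, rose from 7.34 ± 1.18 to 68.0 ± 7.06 CPM (log2 fold change 3.21; SD, n = 3 each). Cdkn1b, the gene of p27, picked with its values in view, went from 153 ± 8.03 to 111 ± 9.25 CPM (log2 fold change -0.46). Thbs1, which encodes thrombospondin, fell by 1.67 on the log2 scale, and Gadd45a, a stress response gene, fell by 1.54.

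**Figure D5:**
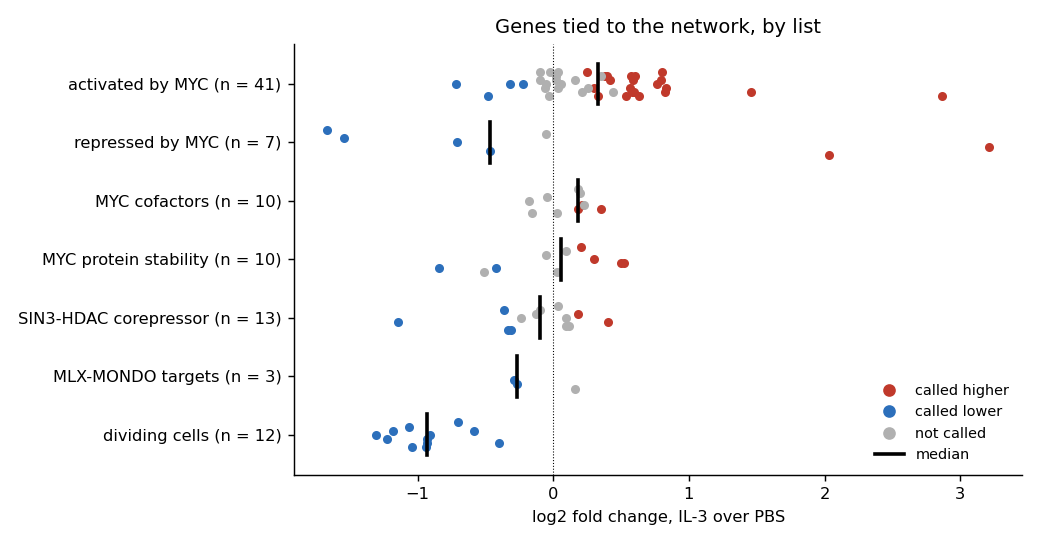
Log2 fold change, IL-3 over PBS, of the tested genes of 7 lists tied to the network (points; red called higher, blue called lower, grey not called), with the median of each list as a black bar. The genes described as activated by MYC lie mostly above 0 with a median of 0.33, and all 12 genes of dividing cells lie below 0.

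Of 10 genes for MYC cofactors 3 were called higher and none lower, or 30.0% and 0% against 18.0% and 20.2% of all genes, with a median of 0.18. Among them were Wdr5, which anchors MYC on chromatin, at 0.35 and Ep400 at 0.21. With scaling by library totals none of the list was higher and 1 was lower, against 10.2% and 30.2% of all genes. Only 1 was called higher without PBS replicate 1 or without IL-3 replicate 2, and 2 without PBS replicate 2, IL-3 replicate 1 or IL-3 replicate 3. Leaving out PBS replicate 2 lowered its median to 0.096, and leaving out IL-3 replicate 2 to 0.10. Of 10 genes that act on the stability of MYC protein 4 were called higher and 2 lower, against 18.0% and 20.2% of all genes. Fbxw7, which encodes the ubiquitin ligase subunit that marks MYC for destruction, was at 0.50, Usp36, a nucleolar deubiquitinase, at 0.52, Gsk3a at 0.30, and Cip2a, whose product protects MYC from dephosphorylation, at -0.84. Gsk3b, the most abundant of that list, was at -0.056 and was not called. That split became 2 higher and 4 lower with library totals, on a scale where 10.2% of all genes were higher and 30.2% lower. Only 1 was lower without PBS replicate 2, PBS replicate 3, IL-3 replicate 1 or IL-3 replicate 2.

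Of 13 genes of the SIN3-HDAC corepressor, which MXD proteins recruit, 2 were called higher and 4 lower, or 15.4% and 30.8% against 18.0% and 20.2% of all genes, with a median of -0.10. Hdac1 rose by 0.40 and Sin3b, the most abundant of them, by 0.18, whereas Sap30 was at -1.14, Arid4a at -0.33 and Rbbp7 at -0.31. With library totals 1 was higher and 7 lower, on a scale where 30.2% of all genes were lower. Only 1 was higher without PBS replicate 1, PBS replicate 2 or IL-3 replicate 1, and the median was -0.016 without the latter. Among 3 genes known as targets of MLX with MONDO factors, Txnip was called lower at -0.29 and Klf10 at -0.27, and Arrdc4 was not called. The groups of Txnip overlapped. These calls rested on single libraries, since none of the 3 genes was lower and 1 was higher without IL-3 replicate 1, and only 1 was lower without IL-3 replicate 2 or without any single PBS library. Of 4 further network genes that are not among the 10, Bmyc, a short relative of Myc, was called lower at -0.98, from 4.40 ± 1.14 to 2.24 ± 0.726 CPM (SD, n = 3 each). Without PBS replicate 1 or without IL-3 replicate 3 no gene of these 4 was called lower, and without IL-3 replicate 1 a gene of the 4 was called higher. Mga, an unusual MAX partner, was at 0.16 and Mlxip, which encodes MONDOA, at 0.090, neither of them called, and Mlxipl was too low to be tested. Arrdc4 and Mlxip were also picked with their values in view.

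Genes of dividing cells and most markers of macrophages fell in the same libraries as Mxd3, Mxi1, Mxd4 and Mnt. All 12 genes of dividing cells were called lower, with a median of -0.93 on the log2 scale and summed levels of 1239 to 1354 CPM under PBS and 645 to 722 CPM after IL-3. Among them Hmgb2 was at -1.06, Cenpf at -1.31, Ube2c at -1.18 and Mki67 at -1.04. Of 9 monocyte and macrophage markers, none of which was at 0, 7 were called lower and 2 higher, with summed levels of 11780 to 12720 CPM under PBS and 6132 to 6757 CPM after IL-3. Of 6 mast cell markers 4 were called higher and none lower (364 to 398 CPM in PBS, 711 to 799 CPM in IL-3), and of 7 tested neutrophil markers 3 were called higher and 1 lower (122 to 158 CPM and 194 to 250 CPM). The lower count of neutrophil markers was 2 without PBS replicate 2, IL-3 replicate 2 or IL-3 replicate 3, and that of mast cell markers was 1 without IL-3 replicate 3. Over all genes 18.0% were higher and 20.2% lower, so that the 22.2% of macrophage markers called higher and the 14.3% of neutrophil markers called lower were near or below these shares. The part of these cells in the changes of the network was not tested.

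The genes whose levels followed Myc and Mxd3 most closely over the 6 libraries were taken from 7121 genes with at least 20 CPM in a group. For Myc they were Tmx4, Zfp568 and Tagln2, with Pearson's r of 0.999, 0.998 and 0.998 on log2 CPM. Their own log2 fold changes were 0.55, 0.38 and 0.57, far smaller than that of Myc. For Mxd3 they were Ubald2, Kifc1 and Prc1, with r of 0.998, 0.998 and 0.997. Ubald2 had a log2 fold change of -0.40, and Kifc1 and Prc1, which encode proteins of the mitotic spindle, were at -1.07 and -1.06. The 6 points form 2 groups, so that r mostly reflects the difference between PBS and IL-3.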

How the data were processed

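Per the file headers and the methods of the study, the deposited values are raw read counts per gene symbol in 3 PBS and 3 IL-3 libraries, which the authors made by trimming with Cutadapt 3.4, mapping to reference RNA with Bowtie2 and counting reads per gene. The labels name build GRCm39 and the methods GRCm38. Coordinates and lengths here are those of GENCODE M21 (GRCm38). How reads of several origins and strand were handled is not stated in the sources used here, nor are molecular identifiers mentioned. On the same strand at most 0.411% of the 50-mers of any member occurred in another gene, and on the opposite strand at most 15.8%. No per-sample column was left unused.

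Counts were filtered with filterByExpr, scaled by TMM and tested two-sided with edgeR 4.0.16 in R 4.3.3, with the group as the only term and Benjamini-Hochberg adjustment over all genes. The study used TCC, which was not run here. An iterated TMM in the manner of its normalization was an alternative and gave 2730 higher and 3576 lower genes. SE and 95% intervals came from the F value. The labels do not say that cultures came from separate mice, so p-values measure the spread between these libraries. The smallest chi-square per degree of freedom between libraries of a group was 2.75, so none was a repeated sequencing of another. This value cannot tell separate cultures from separate libraries of the same culture. The pipeline was tested on simulated counts.

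The members and lists were chosen with earlier results of these data known. Named genes are the members, the 4 genes of each pathway list with the smallest adjusted p below 0.05 and its most abundant gene, and the 3 genes closest in pattern to the members with the largest rise and fall. Not every gene that this rule selects is reported here. Marker lists are given by counts and sums. Alternatives were size factors of DESeq2 1.42.0, library totals, this iterated TMM (3 rounds), limma-voom (limma 3.58.1), the Wald test of DESeq2, the exact test of edgeR, no filter, a minimum of 1 CPM in 3 libraries, a replicate block, limits of 0.1 and 0.01 for adjusted p, glmTreat with a fold of 1.5, and each library left out.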

Additional observations from a re-analysis of the deposited data

How the results depend on the processing

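Over 18 alternatives the log2 fold change ranged from 2.51 to 2.80 for Myc, 1.77 to 2.17 for Mycn, 0.35 to 0.54 for Mxd1, 0.36 to 0.60 for Mlx, -1.42 to -1.16 for Mxd3, -1.40 to -1.19 for Mxi1, -0.67 to -0.46 for Mxd4 and -0.58 to -0.35 for Mnt. These 8 genes kept direction and call in all of them, except that the test against a fold of 1.5 left 2 members higher and 2 lower by its own construction, no longer calling Mxd1, Mlx, Mxd4 and Mnt. Max was at -0.017 with library totals and was called at a threshold of 0.1. The highest adjusted p of Mnt with 1 library left out was 0.0189.

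Over all genes library totals gave 1698 higher and 5030 lower calls, and the test against a fold of 1.5 gave 709 and 883. Of the 41 genes described as activated by MYC, 15 were higher and 8 lower with library totals, against 10.2% and 30.2% of all genes. At a threshold of 0.01, 15 were higher and 2 lower, against 13.0% and 14.3% of all genes. Tested against a fold of 1.5, 5 were higher and 0 lower, where 4.25% and 5.3% of all genes were. Without IL-3 replicate 3 the lower count was 2, and over all left-out libraries it was 2 to 4. The higher count was 19 without PBS replicate 2 and 18 without PBS replicate 3.

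The difference of the log2 ratio of MYC genes to antagonists was 2.46 without division by length, 2.61 without Mnt and 2.55 to 2.76 with 1 library left out. With the replicate number as a block 4 members were higher and 4 lower, and 2842 and 3247 genes overall. Same-numbered libraries deviated with correlations of -0.0087, -0.016 and -0.022, which is no sign that equal numbers pair libraries. Depth limited the values of Mycl, Mlxipl and, through few reads in PBS, Mycn.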
